A study of Mus musculus with 12 samples.

Results

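The antioxidant and glutathione enzymes are a list of 41 genes given by name, of which 38 were measured among the 18193 genes tested. They were measured in brown adipose tissue, the fat that makes heat, of ob/ob mice, which lack working leptin and are obese. All animals were males aged 3 months. The 6 treated mice received a single dose of 1 mg/kg of an agonistic antibody against FGFR1, a receptor for fibroblast growth factors, into the abdominal cavity. The 6 control mice received a control IgG and were pair-fed. Both groups carried the ob/ob mutation. Tissue was taken on day 4, and each of the 12 arrays is 1 mouse. Whole tissue was used, so a value is an average over all its cells. Prdx1, Prdx5 and Prdx6 were not analysed here, because no probe set is assigned to any of them alone.

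Cells that respire produce superoxide, which superoxide dismutases turn into hydrogen peroxide. Glutathione peroxidases and peroxiredoxins then reduce the peroxide, and glutathione reductase and thioredoxin reductases restore their partners with electrons from NADPH. Glutathione S-transferases attach glutathione to reactive compounds, among them products of lipid oxidation. The transcription factor NRF2, encoded by Nfe2l2, switches on many of these genes by binding antioxidant response elements, and KEAP1 keeps it low. Brown adipocytes are dense in mitochondria and burn fat, which makes them a source of such oxidants.

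The comparison asks how the antibody changes expression of these enzymes. Of the 38 genes, 6 fell and 3 rose after anti-FGFR1. Gpx3, Gstm2, Gstm5, Gclc, Gsta3 and Txn1 were lower, and Gstz1, Gsta4 and Gpx8 were higher (limma with Benjamini-Hochberg adjustment over all 18193 genes, called at an adjusted p under 0.05). That is 23.7% of the members, against 8.03% of all genes tested and 11% of the 11893 genes at least as bright as the dimmest member. Those 11893 genes had a median level of 8.98, below the 10.70 of the members, so they do not match the members in brightness. When only genes brighter than the median gene were tested, 1642 were called, more than the 1461 over all genes. Fewer genes were tested there than in either background, so the share called among bright genes was above both 8.03% and 11%. By direction, 7.89% of members rose, against 2.94% of all genes and 3.73% of those 11893, and 15.8% fell, against 5.09% and 7.31%. The 2 groups of arrays did not overlap for 5 members (13.2%), against 5.12% of all genes and 7.31% of those 11893. The median log2 fold change (anti-FGFR1 minus control IgG) was -0.02 for the members, with 17 above and 21 below 0, and 0.01 for all genes tested. The median absolute log2 fold change was 0.11 for the members and 0.07 for all genes. The members were chosen with earlier results of these data known. These shares therefore do not test whether the members respond more than other genes. The largest rise was 0.61 and the largest fall -0.53 on the log2 scale (Gstz1 and Gsta3). Among all genes 535 were higher and 926 lower as deposited, but 732 higher and 760 lower after a second quantile normalization, under which 4 members rose and 6 fell.

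**Figure D1:**
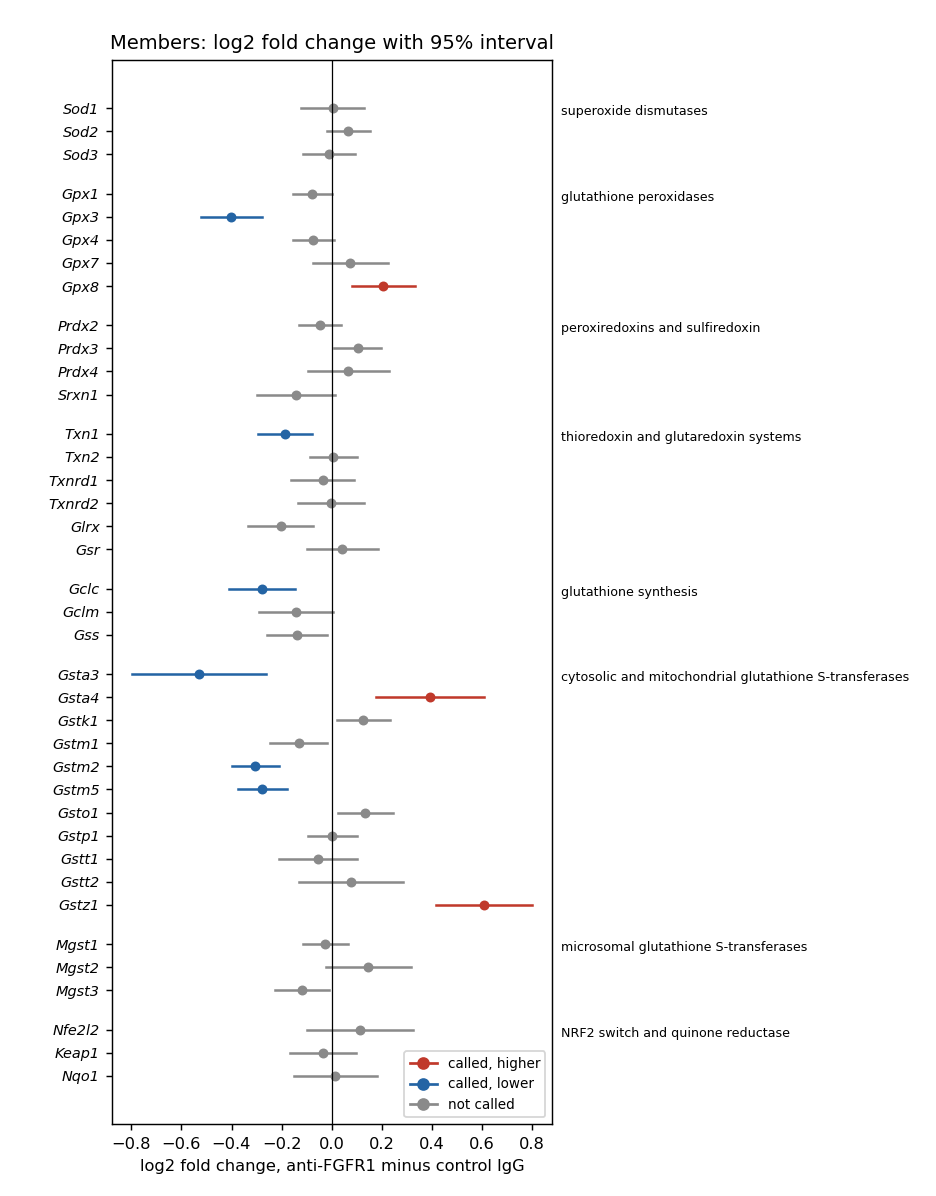
Log2 fold change of each of the 38 measured members (x axis, anti-FGFR1 minus control IgG, 6 arrays per group), arranged by role down the page, with its 95% interval from limma as a bar. Blue points are called lower (6 genes), red points called higher (3 genes) and grey points not called (29 genes); the largest rise is Gstz1 at 0.61 and the largest fall Gsta3 at -0.53.

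Other features of the tissue differed between the groups as well. The mean of 12 endothelial markers lay between 9.30 and 9.55 on the log2 scale after anti-FGFR1 and between 9.60 and 9.84 after control IgG, and that of 9 markers of smooth muscle and pericytes between 9.24 and 9.41 after anti-FGFR1 and between 9.53 and 9.78 after control IgG (two-sided exact permutation p = 0.0022 each, the smallest that 924 assignments allow). By limma 8 of the 12 and 6 of the 9 fell. The mean of 12 macrophage markers was 10.35 ± 0.15 after anti-FGFR1 and 10.06 ± 0.27 after control IgG (SD, n = 6 per group, exact permutation p = 0.0476), and 3 of the 12 rose. Of 8 markers of fibroblasts and preadipocytes 3 rose and 2 fell, of 4 red blood cell markers 1 fell, and of 5 granulocyte markers 0 were called by limma (1 at an unadjusted p under 0.05). The mean of 7 brown adipocyte markers was 13.58 ± 0.05 after anti-FGFR1 and 13.42 ± 0.11 after control IgG (SD, n = 6 per group, exact permutation p = 0.00433), and 2 of the 7 rose. The mean of 12 skeletal muscle markers, of which limma called 0 (0 at an unadjusted p under 0.05), ranged from 7.02 to 11.64 after anti-FGFR1 and from 9.67 to 11.81 after control IgG, and was lowest in anti-FGFR1 replicate 5 and control IgG replicate 6. The difference between the 3' and 5' control probe sets of Actb and Gapdh, a measure of RNA integrity and labelling, averaged over both genes was 0.203 ± 0.027 after anti-FGFR1 and 0.161 ± 0.031 after control IgG (SD, n = 6 per group, exact permutation p = 0.0368). For Actb alone the groups differed by 0.069 (exact permutation p = 0.0433), and for Gapdh alone by 0.014 (exact permutation p = 0.506). What part these play in the results below was not tested, and in whole tissue fewer cells of a type and less RNA per cell cannot be told apart. The defining genes of brown fat were bright in both groups: Ucp1, the uncoupling protein that makes heat, averaged 14.55 after anti-FGFR1 and 14.52 after control IgG, and Cidea, a lipid droplet protein of brown fat, 14.34 after anti-FGFR1 and 14.37 after control IgG. The 2 brown adipocyte markers that rose by limma were Elovl3 (0.76 ± 0.19, adjusted p = 0.0254) and Cox7a1 (0.16 ± 0.05, adjusted p = 0.0423). For both, the groups did not overlap.

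On the probe sets used, none of the 3 superoxide dismutases passed limma, and 0 had an unadjusted p under 0.05. Sod1, the copper and zinc enzyme of the cytosol, averaged 12.20 ± 0.09 after anti-FGFR1 and 12.20 ± 0.11 after control IgG (SD, n = 6 per group). Its log2 fold change was 0.00, with a 95% interval of -0.12 to 0.13. Sod2, the manganese enzyme of mitochondria, averaged 13.69 ± 0.04 after anti-FGFR1 and 13.62 ± 0.05 after control IgG, a difference of 0.07 (interval -0.02 to 0.15). Its 3 other probe sets were at 0.10, 0.15 and -0.01, none called (adjusted p = 0.242, 0.167 and 0.943 over all probe sets), though the first of these had an unadjusted p of 0.0441 and the second of 0.0217. Sod3, which is secreted into the matrix, differed by -0.01 (interval -0.11 to 0.09). A very dim probe set of Sod1, whose suffix is the one its maker gives to probes that may bind related transcripts, ranged from 4.35 to 4.69 with a median of 4.53 after anti-FGFR1, and from 3.92 to 4.43 with a median of 4.22 after control IgG. It was called higher (0.32 ± 0.09, adjusted p = 0.0381 over all probe sets), although the groups overlapped. The 4 other Sod1 probe sets lay between -0.13 and 0.00 and were not called.

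Among the glutathione peroxidases, the secreted form fell and a form of the endoplasmic reticulum rose. Gpx3, which is released into plasma, ranged from 13.31 to 13.51 with a median of 13.47 after anti-FGFR1, and from 13.73 to 14.04 with a median of 13.80 after control IgG. Every anti-FGFR1 array was below every control array. Its log2 fold change was -0.40 ± 0.06 (SE, adjusted p = 0.00061), 0.758 times the control level. The means of the endothelial and smooth muscle markers, which were lower too, are given above. What part they play in the change of Gpx3 or any other member was not tested. Gpx8, a membrane enzyme of the endoplasmic reticulum, ranged from 8.77 to 9.11 with a median of 8.90 after anti-FGFR1, and from 8.59 to 8.75 with a median of 8.73 after control IgG. The groups did not overlap, though the lowest anti-FGFR1 array was only just above the highest control array. Gpx8 rose by 0.21 ± 0.06 (adjusted p = 0.0418), and of the 12 fits that each omit an array the call held in 3, those omitting control IgG replicate 5 and anti-FGFR1 replicates 2 and 6. Gpx7, its relative in the same compartment, differed by 0.07 ± 0.07. Gpx1, the main cytosolic enzyme, and Gpx4, which reduces lipid peroxides in membranes, were at -0.08 ± 0.04 and -0.07 ± 0.04, short of the threshold (adjusted p = 0.228 and 0.270), although for Gpx1 5 of the 6 treated mice lay below every control. The second probe set of Gpx4 gave -0.07 as well.

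Of the 3 peroxiredoxins and sulfiredoxin, on the probe sets used, limma called 0, and 1 had an unadjusted p under 0.05. Prdx3, the mitochondrial peroxiredoxin, averaged 13.08 ± 0.04 after anti-FGFR1 and 12.98 ± 0.08 after control IgG (SD, n = 6 per group), a difference of 0.10 ± 0.04 (SE, adjusted p = 0.173). Prdx2, a cytosolic form that is abundant in red blood cells, differed by -0.05 ± 0.04, and Prdx4, the form of the endoplasmic reticulum, by 0.07 ± 0.08. The 3 dimmer probe sets of Prdx4 were at 0.24, 0.19 and -0.08, none called (adjusted p = 0.171, 0.338 and 0.690 over all probe sets; unadjusted p = 0.0229 for the first). Srxn1, sulfiredoxin, which repairs overoxidised peroxiredoxins and is an NRF2 target, differed by -0.14 ± 0.07 (adjusted p = 0.264), and of its 4 probe sets 3 were below 0 and 1 above. The 3 dimmer ones were at -0.17, -0.20 and 0.09, and limma called none. The first of these had an unadjusted p of 0.0251 and the second of 0.0181.

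In the thioredoxin and glutaredoxin systems only the cytosolic thioredoxin was called. Txn1 ranged from 12.05 to 12.18 with a median of 12.11 after anti-FGFR1, and from 12.16 to 12.43 with a median of 12.30 after control IgG. In 5 of 6 anti-FGFR1 mice it was below all controls. It fell by 0.19 on the log2 scale (SE 0.05, adjusted p = 0.0361). Its call also held in 3 of those 12 fits, the ones omitting control IgG replicates 1 and 4 and anti-FGFR1 replicate 2, and the mean of its 2 probe sets was at -0.08 and not called, the dimmer one being at 0.03. Glrx, glutaredoxin 1, which removes glutathione from proteins, was close to the threshold. On the probe set used it ranged from 10.12 to 10.27 with a median of 10.16 after anti-FGFR1, and from 10.16 to 10.53 with a median of 10.40 after control IgG, a difference of -0.20 ± 0.06 (adjusted p = 0.0535). On its other probe set it ranged from 9.75 to 9.89 with a median of 9.85 after anti-FGFR1, and from 9.88 to 10.30 with a median of 10.14 after control IgG, with a log2 fold change of -0.28 ± 0.06 (SE; adjusted p = 0.0168 over all probe sets). The groups overlapped on both. Without control IgG replicate 1 the probe set used was called as well. Txn2, the mitochondrial thioredoxin, differed by 0.01 ± 0.04, and the reductases Txnrd1, Txnrd2 and Gsr by -0.04, -0.00 and 0.04, with 95% intervals of -0.16 to 0.09, -0.13 to 0.13 and -0.10 to 0.18. Other probe sets were at -0.22 and 0.03 for Txnrd1, -0.08, 0.07 and -0.20 for Txnrd2, and -0.03 for Gsr. Limma called none of these, though the Txnrd2 probe set at -0.20 had an unadjusted p of 0.0203.

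The catalytic enzyme of glutathione synthesis fell. Glutamate-cysteine ligase, which carries out the limiting step, is made of a catalytic subunit (Gclc) and a modifier subunit (Gclm), and glutathione synthetase (Gss) completes the molecule. Gclc ranged from 9.18 to 9.47 with a median of 9.33 after anti-FGFR1, and from 9.46 to 9.78 with a median of 9.59 after control IgG. In 5 of 6 anti-FGFR1 mice it was below all controls. Its log2 fold change was -0.28 ± 0.06 (SE, adjusted p = 0.0116), and its other probe set, at -0.16, had an adjusted p of 0.0592 over all probe sets. Gclm and Gss were at -0.14 ± 0.07 and -0.14 ± 0.06, also below 0 but short of the threshold (adjusted p = 0.236 and 0.154). The dimmer probe set of Gclm was at 0.11, while both probe sets of Gss were below 0.

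The glutathione S-transferases held 5 of the 9 calls, and these went both ways: of 11 soluble enzymes 3 fell, 2 rose and 6 did not pass. Gstz1, which is also maleylacetoacetate isomerase, a step of tyrosine breakdown, showed the largest rise of any member. It ranged from 10.93 to 11.47 with a median of 11.37 after anti-FGFR1, and from 10.49 to 10.91 with a median of 10.69 after control IgG. All 6 anti-FGFR1 arrays were above all controls, the lowest of them only by a small margin. It rose by 0.61 ± 0.09 (adjusted p = 0.00086), to 1.52 times the control level. Gsta4, which conjugates the lipid peroxidation product 4-hydroxynonenal, ranged from 10.36 to 10.57 with a median of 10.55 after anti-FGFR1, and from 9.73 to 10.43 with a median of 10.12 after control IgG. In 5 of 6 anti-FGFR1 mice it was above all controls, and the controls were more spread (SD 0.267) than the anti-FGFR1 arrays (SD 0.079). It rose by 0.39 ± 0.10 (adjusted p = 0.0264). The call was lost without control IgG replicates 3 or 4, or anti-FGFR1 replicates 1, 2, 4 or 5, and also without the array lowest in muscle markers of each group (0.31, adjusted p = 0.0644).

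**Figure D2:**
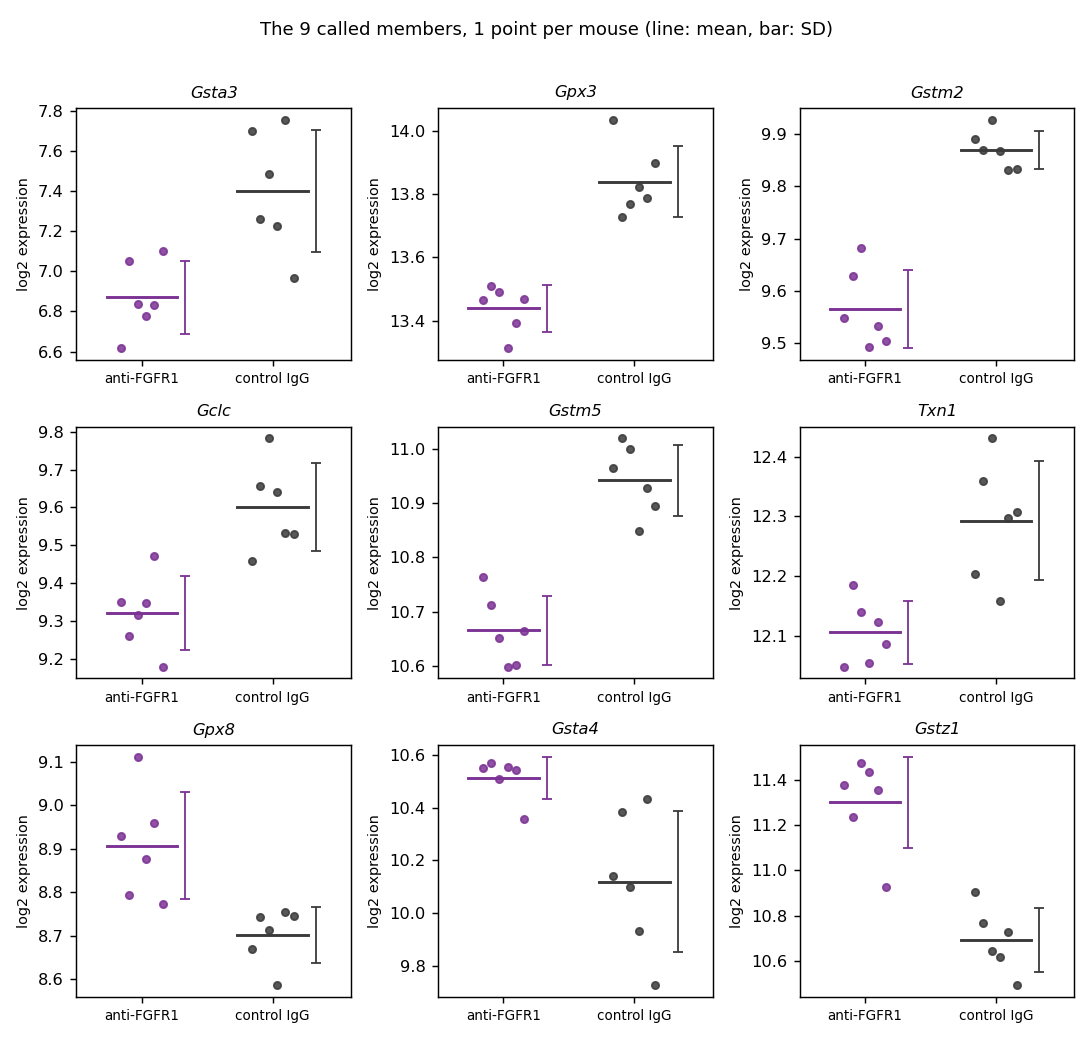
Log2 expression (y axis, its range differs between panels) of the 9 called members in the 6 anti-FGFR1 mice (purple, left) and the 6 control IgG mice (dark grey, right), with the mean as a line and the SD as a bar. The groups do not overlap for Gpx3, Gstm2, Gstm5, Gpx8 and Gstz1, while in Gsta3, Gclc, Txn1 and Gsta4 at least 1 anti-FGFR1 mouse lies within the control range.

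The falls were those of Gstm2, Gstm5 and Gsta3. Gstm2 ranged from 9.49 to 9.68 with a median of 9.54 after anti-FGFR1, and from 9.83 to 9.93 with a median of 9.87 after control IgG. Gstm5 ranged from 10.60 to 10.76 with a median of 10.66 after anti-FGFR1, and from 10.85 to 11.02 with a median of 10.95 after control IgG. Both genes, which encode enzymes of the mu class, separated the groups completely. Their log2 fold changes were -0.30 ± 0.04 and -0.28 ± 0.05 (adjusted p = 0.00067 and 0.0019), and both calls held in all 12 fits that each omit an array, as did those of Gpx3, Gstz1, Gclc and Gsta3. Gsta3, of the alpha class, was dim, and ranged from 6.62 to 7.10 with a median of 6.83 after anti-FGFR1, and from 6.97 to 7.76 with a median of 7.37 after control IgG. The groups overlapped, and 4 of 6 treated mice lay below every control. Gsta3 had a log2 fold change of -0.53 ± 0.12 (adjusted p = 0.0171), and its other probe set was at -0.26 and not called (adjusted p = 0.128 over all probe sets).

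The mu class genes lie side by side on chromosome 3, and not all of them were called. Gstm1, a direct neighbour of Gstm2, was at -0.13 ± 0.05, which was not called (adjusted p = 0.153), and its 4 probe sets lay between -0.15 and -0.01. The probe set used for Gstm1 carries the cross-binding suffix too, and the part of related transcripts in it was not tested. Gstm3 and Gstm4, which lie next to Gstm2 and Gstm1, differed by 0.05 ± 0.05 and 0.06 ± 0.05, and Gstm6 and Gstm7 by 0.09 ± 0.07 and 0.03 ± 0.06. These 4 neighbours were chosen after their values were seen. None of the 4 was called, though Gstm7 was called higher when its probe sets were averaged (0.30, adjusted p = 0.0105), and Gstm3 was then at -0.01. After a second quantile normalization or centring, the 4 neighbours were above 0 and Gstm2 and Gstm5 below 0, but Gstm4, Gstm6 and Gstm7 were below 0 with the endothelial covariate, and Gstm3, Gstm6 and Gstm7 with the 3' to 5' covariate, described at the end. Whether the genes of the cluster differ from each other in their response was not tested.

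The window from 250 bases before to 50 bases after the start of transcription is shown for the 3 transferases that fell, because Gstm2 and Gstm5 were both called lower while Gstm3, Gstm6 and Gstm7, the 3 coding genes between them, were not, and because Gsta3 and Gstm5 hold the core of an antioxidant response element there. The sequences are RefSeq's, build GRCm38.p6, given in the direction of the gene, at chr3:107895604-107895903 (Gstm5, plus strand), chr3:107986371-107986670 (Gstm2, minus strand) and chr1:21240335-21240634 (Gsta3, plus strand). Capitals mark matches to the element's core, TGACNNNGC, or to the AP-1 element, TGANTCA, which AP-1 factors downstream of ERK bind.
Gstm5: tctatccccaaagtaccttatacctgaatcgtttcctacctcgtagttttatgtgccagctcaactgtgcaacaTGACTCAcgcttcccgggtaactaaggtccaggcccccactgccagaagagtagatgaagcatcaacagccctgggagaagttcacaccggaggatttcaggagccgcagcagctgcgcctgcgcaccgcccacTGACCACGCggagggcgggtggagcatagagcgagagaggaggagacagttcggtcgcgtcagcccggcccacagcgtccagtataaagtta
Gstm2: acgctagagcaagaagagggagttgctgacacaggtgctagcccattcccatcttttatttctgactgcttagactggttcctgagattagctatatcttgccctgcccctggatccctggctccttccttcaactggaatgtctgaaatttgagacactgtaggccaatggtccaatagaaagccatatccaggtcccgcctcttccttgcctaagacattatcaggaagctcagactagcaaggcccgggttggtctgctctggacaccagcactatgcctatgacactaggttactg
Gsta3: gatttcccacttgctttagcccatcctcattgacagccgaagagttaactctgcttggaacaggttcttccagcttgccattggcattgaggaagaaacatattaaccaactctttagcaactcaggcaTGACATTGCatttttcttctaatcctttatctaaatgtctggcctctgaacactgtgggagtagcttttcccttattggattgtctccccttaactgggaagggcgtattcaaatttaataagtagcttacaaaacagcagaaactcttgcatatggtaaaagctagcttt
Counting the start base as 0, the element's core lies at -42 to -34 in Gstm5 and at -121 to -113 in Gsta3, and the AP-1 element at -176 to -170 in Gstm5. The Gstm2 window holds neither set of letters. Both strands were searched in every window. A site can match both motifs, since their first letters are shared, and in no member did the matches overlap. The core was found in 12.4% of all 32851 windows and in 8 of 42 windows of the 33 members that have one. The AP-1 element was found in 7.81% of all windows and in 6 of the members' 42. These 6 come from 5 genes, as overlapping windows of Glrx hold the same site. Of the 8 windows of called members, 2 hold the core and 1 the AP-1 element. Among members that were not called, Gclm, Mgst1, Nfe2l2, Sod1, Srxn1 and Txnrd1 hold the core. Glrx, Gstp1, Mgst2 and Srxn1, also not called, hold the AP-1 element. A match is a match of letters only.

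The remaining transferases did not pass. Gsto1, of the omega class, and Gstk1, of mitochondria and peroxisomes, differed by 0.13 ± 0.05 each (adjusted p = 0.129 and 0.140); for both, 5 treated mice lay above every control. Gsto1 passed after a second quantile normalization (0.15, adjusted p = 0.0454). The probe set used for Gsto1 carries the cross-binding suffix as well, and its other probe set, without that suffix, was at 0.02 and not called. Gstp1, of the pi class, differed by 0.00 (95% interval -0.09 to 0.10), and Gstt1 and Gstt2, of the theta class, by -0.06 ± 0.07 and 0.08 ± 0.10. The microsomal transferases sit in membranes. Mgst1 averaged 13.57 ± 0.07 after anti-FGFR1 and 13.60 ± 0.02 after control IgG (SD, n = 6 per group), a difference of -0.02. Mgst2 and Mgst3 were at 0.15 ± 0.08 and -0.12 ± 0.05, neither called (adjusted p = 0.301 and 0.178).

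Of the 2 probe sets of Nfe2l2, the gene of NRF2, the dimmer one was called lower and the brighter one was not called. The brighter one ranged from 10.69 to 10.98 with a median of 10.74 after anti-FGFR1, and from 10.28 to 10.92 with a median of 10.73 after control IgG. It differed by 0.11 ± 0.10 and was not called (adjusted p = 0.548). The dimmer one ranged from 6.15 to 6.73 with a median of 6.46 after anti-FGFR1, and from 7.56 to 8.23 with a median of 8.11 after control IgG. The groups were far apart on it. It fell by 1.59 on the log2 scale (SE 0.12), to a level 3.01 times lower than in controls, with an adjusted p of 5.6e-06 over all probe sets. Of 45037 probe sets it had the 3rd largest fall and the 4th smallest p. The probe table credits it to an expressed sequence tag and the brighter one to the gene's RefSeq transcript, and where the dimmer one lies in the gene was not analysed here. The mean of both probe sets was called lower (-0.74, adjusted p = 3.2e-05).

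Keap1, the inhibitor of NRF2, differed by -0.03 ± 0.06 (95% interval -0.17 to 0.10), and its dimmer probe set by -0.15. Nqo1, a quinone reductase that is a standard NRF2 target, averaged 7.28 ± 0.16 after anti-FGFR1 and 7.26 ± 0.13 after control IgG (SD, n = 6 per group), a difference of 0.01 (95% interval -0.15 to 0.18). On that dimmer Keap1 probe set the groups overlapped, at 8.58 to 8.90 after anti-FGFR1 and 8.70 to 9.19 after control IgG. The dimmer Nfe2l2 probe set is the only one of these measurements on which the groups separated.

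**Figure D3:**
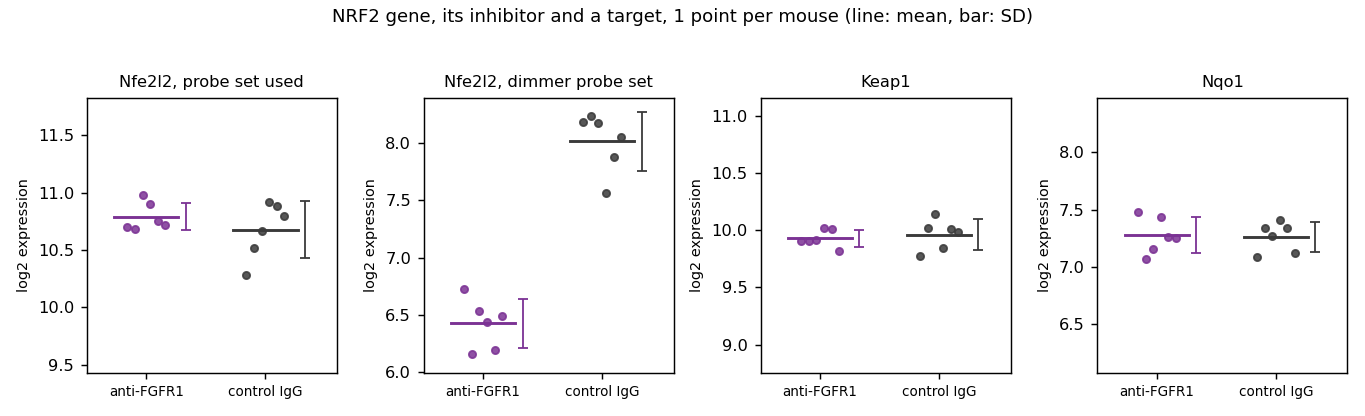
Log2 expression (y axis, each panel spanning the same number of units) of the 2 probe sets of Nfe2l2, of Keap1 and of Nqo1 in the 6 anti-FGFR1 mice (purple, left) and the 6 control IgG mice (dark grey, right), with the mean as a line and the SD as a bar. The groups separate on the dimmer Nfe2l2 probe set, at 6.15 to 6.73 after anti-FGFR1 and 7.56 to 8.23 after control IgG, and overlap in the other 3 panels.

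Probe sets of the same gene often differed in sign where the change was small. The 38 members had 76 probe sets, and 10 of these passed when adjusted over all 45037 probe sets, of which 5.32% passed. The 10 included 7 of the 9 called members, without Gpx8 and Txn1 (adjusted p = 0.0561 for Txn1 there), and a second or dimmer probe set of Glrx, Nfe2l2 and Sod1. Of 23 members with more than 1 probe set, 10 had all of them on the same side of 0 and 13 did not. Gpx3, Gpx8, Gstm2, Gstm5, Gsta4 and Gstz1 had a single probe set each, so these calls have no second probe set to set beside them.

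**Figure D4:**
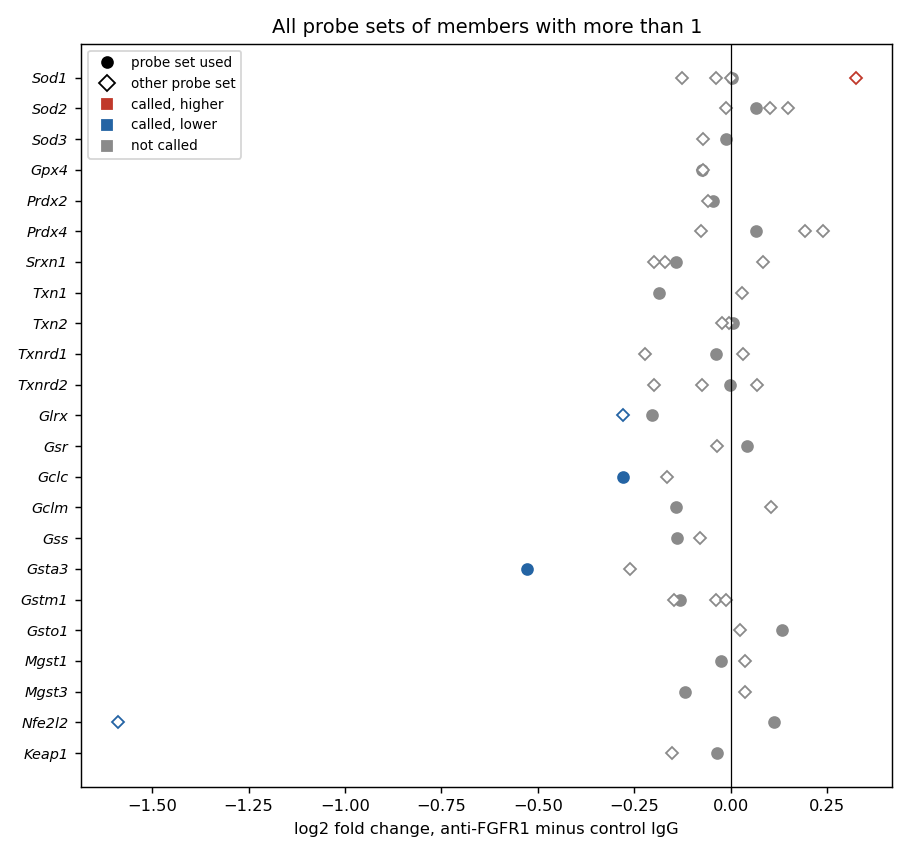
Log2 fold change (x axis, anti-FGFR1 minus control IgG) of every probe set of the 23 members with more than 1, with the probe set used as a filled circle and the others as open diamonds; blue and red mark those called over all probe sets and grey those not called. The dimmer probe set of Nfe2l2 stands apart at -1.59, and next to it in size are Gsta3 at -0.53 and the dim probe set of Sod1 at 0.32.

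Genes that work beside these enzymes were read from 4 lists. Of 24 NRF2 targets and regulators outside the members, 1 rose, 0 fell and 23 did not pass; their median log2 difference was -0.02. The gene that rose was Pgd, an enzyme of the pentose phosphate pathway that makes NADPH, which ranged from 12.65 to 12.96 after anti-FGFR1 and from 12.46 to 12.59 after control IgG (0.28 ± 0.05, adjusted p = 0.0053). The probe set used for Pgd carries the cross-binding suffix, and it is the only one of the gene's 4 probe sets given here. Hmox1, heme oxygenase 1, another standard NRF2 target, differed by -0.07 ± 0.23 and was widely spread in both groups, from 9.52 to 10.70 after anti-FGFR1 and from 9.59 to 11.07 after control IgG.

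Of 30 other glutathione enzymes and carriers, 2 rose, 1 fell and 27 did not pass, with a median of 0.06. Cth, cystathionine gamma-lyase, which makes the cysteine that glutathione needs, ranged from 6.67 to 6.86 after anti-FGFR1 and from 5.51 to 6.45 after control IgG. All anti-FGFR1 arrays were above all controls, and it rose by 0.74 ± 0.11 (adjusted p = 0.0011). Ptges, a prostaglandin E synthase that uses glutathione, rose by 0.31 ± 0.08 (adjusted p = 0.0345), a call lost without control IgG replicate 2 or any anti-FGFR1 array but replicate 4. Lancl1, which binds glutathione, fell by 0.19 on the log2 scale (SE 0.04, adjusted p = 0.0108), and the groups did not overlap, though its 2 probe sets averaged -0.02 and were then not called.

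Of 26 other genes of peroxide removal, thioredoxin and redox repair, 2 rose, 2 fell and 22 did not pass, with a median of -0.02. Msrb3, which repairs oxidised methionine, fell by 0.38 on the log2 scale (SE 0.05, adjusted p = 0.00043), at 9.16 to 9.41 after anti-FGFR1 and 9.61 to 9.77 after control IgG. The NADPH-producing isocitrate dehydrogenases went opposite ways: Idh1, of the cytosol, rose by 0.17 ± 0.04 and Idh2, of mitochondria, fell by 0.19 on the log2 scale (SE 0.05; adjusted p = 0.0268 and 0.0211). Sesn2, sestrin 2, rose by 0.21 ± 0.06 (adjusted p = 0.0336). The Idh1 call was lost on omitting control IgG replicates 2, 3 or 5 or anti-FGFR1 replicates 1, 3, 5 or 6, that of Idh2 on omitting anti-FGFR1 replicates 1 or 5, and that of Sesn2 on omitting control IgG replicates 1 or 2 or anti-FGFR1 replicates 2, 4 or 5. With its probe sets averaged, Idh2 was at -0.07 and not called. Catalase (Cat) differed by 0.15 ± 0.06 and Txnip, the thioredoxin inhibitor, by 0.00 ± 0.05, neither called, though Cat passed without anti-FGFR1 replicate 6.

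Of 10 genes whose proteins make superoxide or hydrogen peroxide, 0 rose, 2 fell and 8 did not pass, with a median of 0.00. Maoa, monoamine oxidase A, ranged from 9.80 to 10.11 after anti-FGFR1 and from 10.30 to 10.44 after control IgG, and fell by 0.41 on the log2 scale (SE 0.06, adjusted p = 0.00054). Nox4, an NADPH oxidase, was dim, at 5.81 to 6.49 after anti-FGFR1 and 6.52 to 6.94 after control IgG. It fell by 0.45 on the log2 scale (SE 0.12, adjusted p = 0.0270), a call lost without control IgG replicates 2, 3, 4 or 6 or anti-FGFR1 replicate 6. Over the 4 lists 11.1% of 90 genes were called. The share was 8.03% of all genes tested and 11% of the 11893 at least as bright as the dimmest member. The median level was 10.07 for the 90 genes and 8.98 for the 11893. In the order given, the lists had 4.17%, 10%, 15.4% and 20% of their genes called.

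With the 3' to 5' difference as a covariate, Gpx3, Gstm2, Gstm5 and Gstz1 were the members still called. The 9 called members kept a median of 95.7% of their fold, while standard errors of the 38 members grew to a median of 1.27 times their size without it. With the mean of the endothelial markers as a covariate, whose groups do not overlap, 0 members were called by limma, and 7 of the 38 had an unadjusted p under 0.05. Standard errors grew to a median of 2.02 times their size without it, and the 9 genes kept between 39.5% (Txn1) and 135% (Gpx3 and Gsta3) of their fold.

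**Figure D5:**
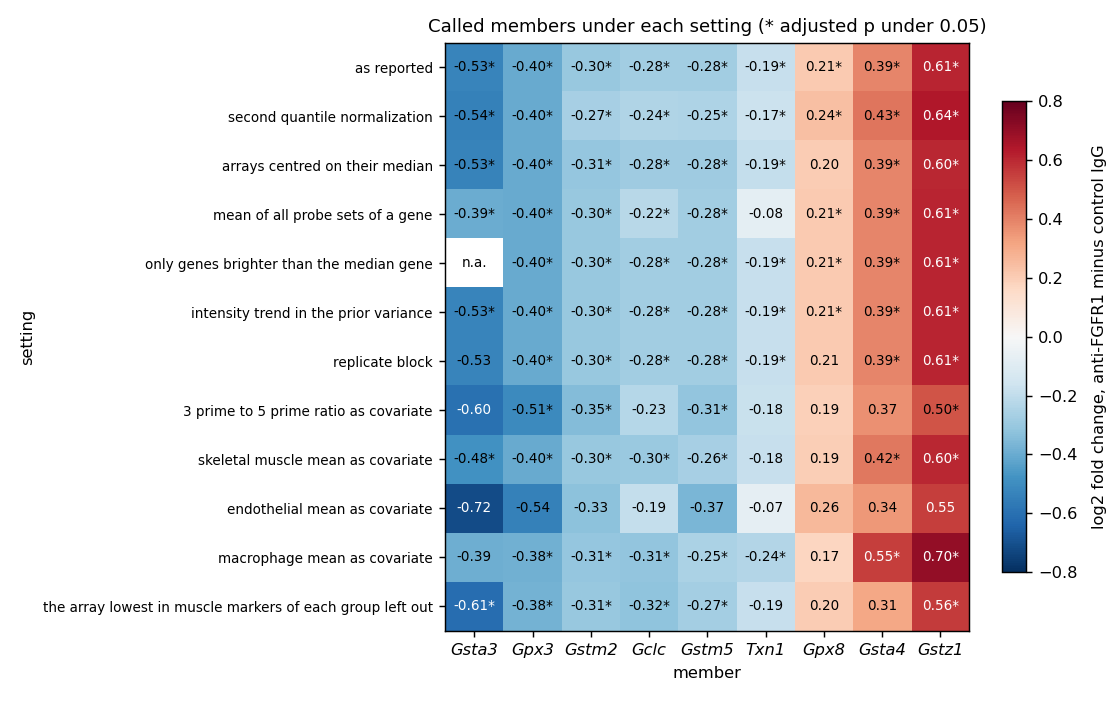
Log2 fold change (anti-FGFR1 minus control IgG, in colour and digits) of the 9 called members (columns) as reported and under each other setting (rows); an asterisk marks an adjusted p under 0.05, and n.a. a gene left out by the setting. Each gene has the same sign in every row that tested it, and the endothelial covariate is the row with no asterisk.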

How the data were processed

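Brown adipose tissue RNA of 12 mice was hybridised to 12 one-colour arrays with biotin label, 6 mice per group. The deposited values are log2 values, made by the authors with RMA per the submitters' processing notes, which also name limma; versions are not given in the sources used here. There are 45101 probe sets. Arrays hold no counts, so precision rests on how many were run.

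Values were used as deposited. The platform's probe annotation named the probe sets, and symbols were updated by Entrez identifier to RefSeq (GRCm38.p6). A single gene was named for 34945 probe sets and several for 932, and 9211 were unlisted. Several-gene and unlisted probe sets and 64 control probe sets stayed out of the fit over genes. The fit over all 45037 probe sets left out only the 64 controls. Each gene was read from its probe set brightest on average over the arrays, giving 18193 genes. The comparison used limma 3.58.1 (R 4.3.3, with the data.table package, version 1.17.8), two-sided, without covariates. In the text ± is the moderated SE unless marked SD. Array quantities were compared by exact permutation.

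All 41 members are accounted for; of the 4 related lists the called genes, at most 6 each, are named, and Hmox1, Cat and Txnip in any case. Members and lists were chosen with earlier results of these data known. In data simulated for this comparison over 18193 genes, 67 were changed by 0.25, 67 by 0.5 and 66 by 1. Recovery was 41.8% at a change of 0.25, 88.1% at 0.5 and 100% at 1, and 3.77% of calls were false. Far fewer genes were changed there than the 1461 called here, so recovery in these data may differ. Alternatives were a second quantile normalization, median centring, averaged probe sets, a filter on dim genes, an intensity trend, a replicate block, 4 covariates (3' to 5' difference and the skeletal muscle, endothelial and macrophage means) and omission of arrays.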

Additional observations from a re-analysis of the deposited data

Results flagged for a closer look

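Among 76 sets of 6 values (38 members in each group), 3 held an array far from the other 5 by Dixon's test, and chance gives about 1 in 20. Gsta4 was at 10.36 in anti-FGFR1 replicate 6, where the other 5 anti-FGFR1 arrays lay between 10.51 and 10.57. Gsto1 was at 12.12 in the same array, where the other 5 lay between 12.23 and 12.29. Sod1 was at 12.40 in control IgG replicate 5, where the other 5 controls lay between 12.13 and 12.23.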

How the results depend on the processing

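The signs of all 9 called members were the same under every alternative run that tested them (Gsta3 was not tested without dim genes). Their number (9) was 10 after a second quantile normalization or with an intensity trend (all 9 among them) or with the mean of probe sets (8 among the 9), 9 without dim genes (8 of them among the 9, as Gsta3 is dim) or with the macrophage covariate (7 among the 9), 8 after centring (all among the 9) or with the muscle covariate (7 among the 9, with Gpx8 and Txn1 lost and Glrx gained), and 6 without the array lowest in muscle markers of each group, an alternative chosen after seeing the data. With the 3' to 5' covariate 4 members, 5 related genes, 5 member probe sets and 688 genes were called. With the endothelial covariate these were 0, 0, 1 and 63. The called related genes (10) numbered between 6 and 12 when 1 array was left out, lowest without control IgG replicate 2, and the called members between 6 and 9. With the replicate number as a block (replicate block), 7 members and 1337 genes were called, Gsta3 and Gpx8 losing their calls; correlations between same-numbered arrays ran from -0.295 to 0.329, so the numbers are not taken to pair the mice. Nfe2l2 turned from 0.11 to -0.74 with the mean of its probe sets. Nox4 turned from -0.45 to 0.082 (not called) with the endothelial covariate. The causes of these shifts were not tested. Of the uncalled members, 16 changed sign under some alternative. The filter on dim genes and the mean of probe sets were not run for probe sets. Changes of 0.25 were often missed in the simulation, where fewer genes were changed than limma called here. Members that did not pass may still differ by such amounts or less.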
